A study of Mus musculus with 12 samples.

Results

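The cadherin superfamily was examined in RNA-seq of CD31+ endothelial cells taken by flow sorting from forebrain of mouse embryos at E15.5, in 3 Gpr124 genotypes. Members were taken by a rule on names, set with earlier results of these data known: the protein-coding genes of GENCODE vM21 whose symbol is Cdh followed by a number, starts with Pcdh, or is one of Celsr1 to Celsr3, Fat1 to Fat4, Dchs1 and Dchs2. The rule gave 101 genes of the 49315 in the count files, of which 21811 were protein-coding. They comprised 23 Cdh genes (5 type I classical, 13 type II classical and 5 others), 69 protocadherins (12 non-clustered, 14 in the Pcdha cluster, 22 in the Pcdhb cluster and 21 in the Pcdhg cluster), 3 Celsr genes and 6 FAT and Dachsous genes.

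The embryos fell into 3 groups of 4, with 1 embryo per library: wild type (WT), Gpr124deltaC/deltaC and Gpr124-/-. GPR124 is an adhesion GPCR that acts with RECK as a coreceptor for WNT7 in brain endothelium, and its gene is listed as Adgra2. Gpr124deltaC/deltaC embryos were homozygous for a CRISPR/Cas9 allele in which a V5 tag and a stop codon replace the intracellular domain, and Gpr124-/- embryos were homozygous for a lacZ null allele. Both alleles are carried by every cell of the embryo and not only by the endothelium, and each mutant came from intercrosses of its own heterozygous line. Cells were gated as CD31+/CD140b-/CD45-/7AAD-. Nothing in the labels says whether embryos of 1 group shared a litter.

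Cadherins are calcium-dependent adhesion proteins built from extracellular cadherin repeats. Classical cadherins bind catenins with their cytoplasmic tails and so hold the actin cytoskeleton at adherens junctions, which in endothelium are made mainly by VE-cadherin (Cdh5), while N-cadherin (Cdh2) is known for contacts of endothelial cells with pericytes. Protocadherins do not bind catenins in this way: the clustered ones are expressed from alternative promoters and serve self-recognition in neurons, and the non-clustered ones are known mostly from neural circuits. The giant FAT and Dachsous cadherins bind one another between cells, and like the Celsr cadherins they act in planar cell polarity.

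The sequences upstream of Pcdh17 and Pcdh19 are shown because these are the non-clustered protocadherins that rose and fell, respectively, in the comparisons of both mutants with WT. They are the 250 bases before the gene start in RefSeq (GRCm38.p6), 5′ to 3′ on the strand of the gene, at chr14:84443313-84443562 (+) for Pcdh17 and chrX:133688994-133689243 (-) for Pcdh19. Capitals mark a CCAAT box (CCAAT or ATTGG) or a GC box (GGGCGG or CCGCCC).
Pcdh17: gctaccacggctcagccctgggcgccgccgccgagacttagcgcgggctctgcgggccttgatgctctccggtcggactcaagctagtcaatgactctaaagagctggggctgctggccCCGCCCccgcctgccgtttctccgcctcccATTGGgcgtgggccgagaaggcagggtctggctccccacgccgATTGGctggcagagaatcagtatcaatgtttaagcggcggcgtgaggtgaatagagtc
Pcdh19: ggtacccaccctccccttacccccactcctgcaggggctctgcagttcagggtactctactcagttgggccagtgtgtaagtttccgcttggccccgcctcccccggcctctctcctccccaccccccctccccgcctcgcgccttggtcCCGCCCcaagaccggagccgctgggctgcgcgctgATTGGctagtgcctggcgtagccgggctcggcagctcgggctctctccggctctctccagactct
The Pcdh17 window holds 2 CCAAT boxes and 1 GC box with 64.8% G+C, and the Pcdh19 window holds 1 of each with 69.2% G+C. Neither holds the TCF/LEF core, searched on both strands as the words CTTTGAA and CTTTGAT and as the words CTTTGTA and CTTTGTT, which says only that these letters are not in the window. Of the 32851 RefSeq windows of that length, 33.8% hold a CCAAT box, 32.7% a GC box and 14.8% the TCF/LEF core. A window was given for 29 member symbols, of which 14, 11 and 5 hold these motifs, the last being Cdh6, Cdh7, Cdh26, Pcdh7 and Pcdh8.

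The libraries held 13877572 to 22551163 counted reads, and between 0.197% and 0.277% of them fell on members. The targeted gene followed the labels: Adgra2 stood at 28.3 to 51.1 TPM (a level normalised for gene length and library size) in WT, 34.1 to 63.4 in Gpr124deltaC/deltaC and 4.03 to 6.29 in Gpr124-/-. In WT replicate 2 and Gpr124deltaC/deltaC replicate 1, 1 very short gene, Gm23935, held 12.5% and 14.1% of all TPM, against 1.22% to 3.04% in the other 10 libraries, which lowers every other TPM value of those 2 libraries. The fold changes below come from read counts with TMM scaling and do not carry that shift, except those of the limma fits. These were made on log2 TPM, and none was made without Gm23935. The summed TPM of 10 endothelial markers ranged from 12814 to 16732 in WT, 8020 to 13469 in Gpr124deltaC/deltaC and 7228 to 8748 in Gpr124-/-. Its largest contributor was Cldn5, with means of 9177, 4994 and 2166 TPM, and the other 9 together had means of 5987, 6155 and 6034. No marker of neurons, neural progenitors, pericytes, fibroblasts, macrophages or erythroid cells was at 0 in all libraries of a group. In bulk libraries, fewer cells of a type and less RNA per cell cannot be told apart.

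Member transcripts were more abundant in sum in both mutants. Their summed TPM was 934 ± 24.1 (SD, n = 4) in WT, 1123 ± 103 (SD, n = 4) in Gpr124deltaC/deltaC and 1263 ± 45.3 (SD, n = 4) in Gpr124-/-, and the ranges of 902 to 953, 1012 to 1240 and 1217 to 1325 show that each mutant lay above WT while the mutants overlapped. With TPM recomputed without Gm23935, an alternative added after the data were seen, the sums were 981 ± 57.7, 1179 ± 68.3 and 1292 ± 37.9, and the ranges of the mutants, 1089 to 1254.87 and 1255.13 to 1345, just separated. Type II classical cadherins, the largest class by level, had 345 TPM in WT and 427 and 544 in Gpr124deltaC/deltaC and Gpr124-/- on average, but without Cdh5 the other 12 summed to 38.1, 26.2 and 15.1 TPM. Other Cdh genes had 10.8, 19.8 and 59.2 TPM, and without Cdh13 the other 4 summed to 2.44, 2.93 and 1.97. Type I classical cadherins stood at 145, 137 and 80.3 TPM, non-clustered protocadherins at 205, 259 and 291, and FAT and Dachsous cadherins at 34.9, 39.9 and 60.8. The Pcdhb cluster summed to 77.7, 109 and 90.3 TPM and the Pcdhg cluster to 110.0, 123 and 129. A few genes carried most of the rise of the member sum in Gpr124-/-, above all Cdh5, with means of 306 TPM in WT and 529 in Gpr124-/-. Pcdh17 made up most of the rise of the non-clustered protocadherins, and Dchs1 that of the FAT and Dachsous genes.

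**Figure D1:**
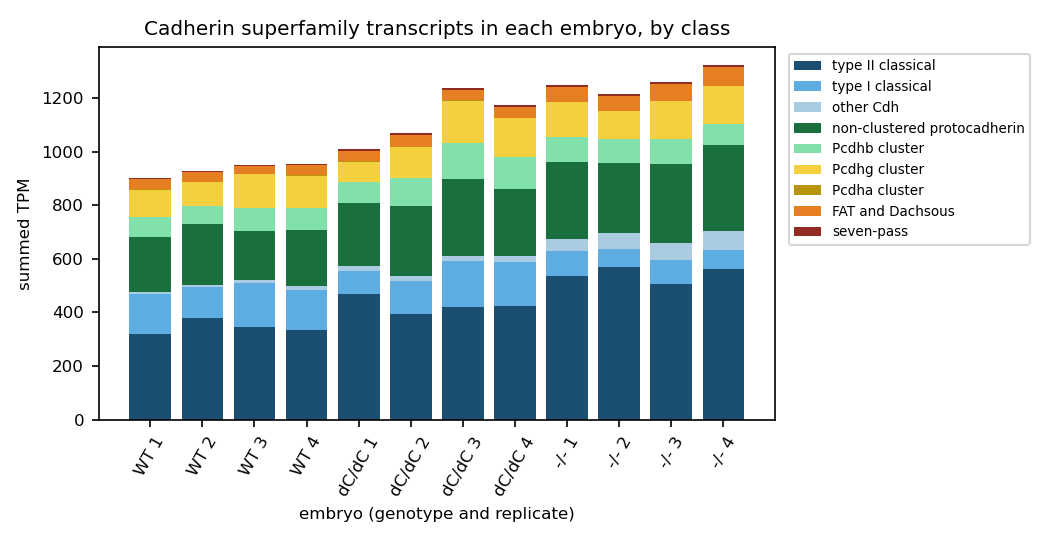
Summed TPM of member transcripts (vertical axis) in each of the 12 embryos (horizontal axis, by genotype and replicate), stacked by class from type II classical at the bottom to the Celsr genes at the top. Bars reach 902 to 953 in WT, 1012 to 1240 in Gpr124deltaC/deltaC (dC/dC) and 1217 to 1325 in Gpr124-/- (-/-), with means of the type II segment, mostly Cdh5, of 345, 427 and 544.

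Few genes made up most of this expression. Cdh5 alone supplied 32.8% of member TPM in WT, 36.0% in Gpr124deltaC/deltaC and 41.9% in Gpr124-/-, Cdh2 supplied 15.2%, 11.7% and 6.197%, and Pcdh12, an endothelial protocadherin once named VE-cadherin-2, 12.5%, 11.3% and 10.9%. A mean of at least 10 TPM was reached by 11 members in WT, 14 in Gpr124deltaC/deltaC and 11 in Gpr124-/-. The 15 members highest in WT were, in order, Cdh5, Cdh2, Pcdh12, Pcdh1, Pcdhgc3, Cdh11, Dchs1, Pcdh17, Pcdhb20, Pcdhb17, Fat4, Cdh13, Pcdhga12, Pcdh19 and Pcdhgb6. Of neighbours in that order, the WT ranges were separate between Cdh5 and Cdh2, Pcdh12 and Pcdh1, Cdh11 and Dchs1, and Pcdhb20 and Pcdhb17. All other neighbours overlapped, Pcdh1 being the most spread at 23.1 to 81.7 TPM.

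Of the 101 members, 70 had enough reads to be tested: 13 of the 23 Cdh genes, 49 of the 69 protocadherins, all 3 Celsr genes and 5 of the 6 FAT and Dachsous genes. None of the 31 others exceeded 34 reads or 1.26 TPM in any library, and Pcdhb1 had no read at all. They were the 14 Pcdha genes, Pcdhb1, Pcdhb12, Pcdhb13, Pcdh11x, Pcdh15, Pcdh20, Fat2, Cdh3, Cdh7, Cdh9, Cdh12 and Cdh15 to Cdh20. Of the 70, 58 reached the minimum level of the filter in all 12 libraries and 68 in libraries of every genotype. The exceptions were Cdh1, at that level in no Gpr124-/- library, and Dchs2, at that level in no WT library.

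A member passed at an adjusted p under 0.05 (edgeR's quasi-likelihood test, Benjamini-Hochberg adjustment over 16637 genes) and was called when its absolute log2 fold change was also above 1. In Gpr124-/- against WT, 6 of 70 were called higher and 3 lower, where 5.67% and 4.21% of all tested genes were, and 10 passed higher and 4 lower, against 10.5% and 9.32% of all genes. In Gpr124deltaC/deltaC against WT, 3 were called higher and 1 lower (all genes 0.89% and 1.03%), and 6 passed higher and 3 lower (all genes 1.85% and 2.24%). In Gpr124-/- against Gpr124deltaC/deltaC, 2 were called in each direction (all genes 2.67% higher and 1.94% lower), and 4 passed higher and 5 lower (all genes 4.93% and 3.89%). The comparisons with WT share the same 4 WT libraries.

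The median log2 fold change of the 70 members was 0.16 in Gpr124-/- and 0.21 in Gpr124deltaC/deltaC against WT, beside medians of -0.01 and 0.01 over all tested genes. Groups of 4 embryos without any overlap in TPM were found, among the 70 tested members, for 15 higher and 4 lower in Gpr124-/- against WT (20.3% of all genes in either direction), for 8 higher and 3 lower in Gpr124deltaC/deltaC against WT (8.85%), and for 7 higher and 6 lower between the mutants (11.5%). For each such separation an exact permutation test (two-sided, 70 orders) gives p = 0.0286, the smallest it can give. Without Gm23935 in the TPM scale, separations were lost for Cdh5, Celsr1, Dchs2 and Pcdhb18 and gained for Cdh2, Cdh23, Pcdhb16, Pcdhb17, Pcdhb19, Pcdhga1 and Pcdhgb7, each in 1 comparison but Cdh5 in both that involve Gpr124deltaC/deltaC.

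**Figure D2:**
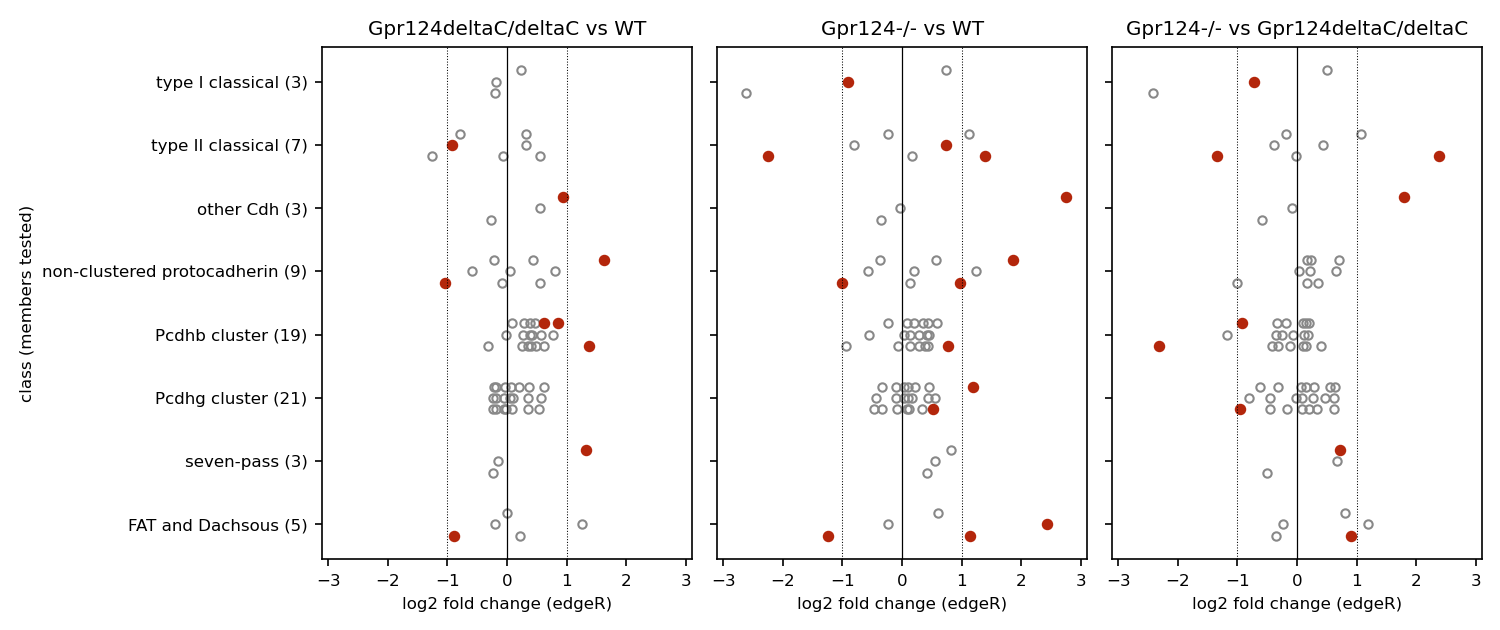
Log2 fold change (horizontal axis, edgeR) of each tested member, by class with the number tested in brackets, for the 3 comparisons, with red filled points at an adjusted p under 0.05, open grey points otherwise and dotted lines at a log2 fold change of 1 in either direction. Most members lie between the dotted lines, and 14, 9 and 9 points are filled in Gpr124-/- against WT, Gpr124deltaC/deltaC against WT and between the mutants.

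**Figure D3:**
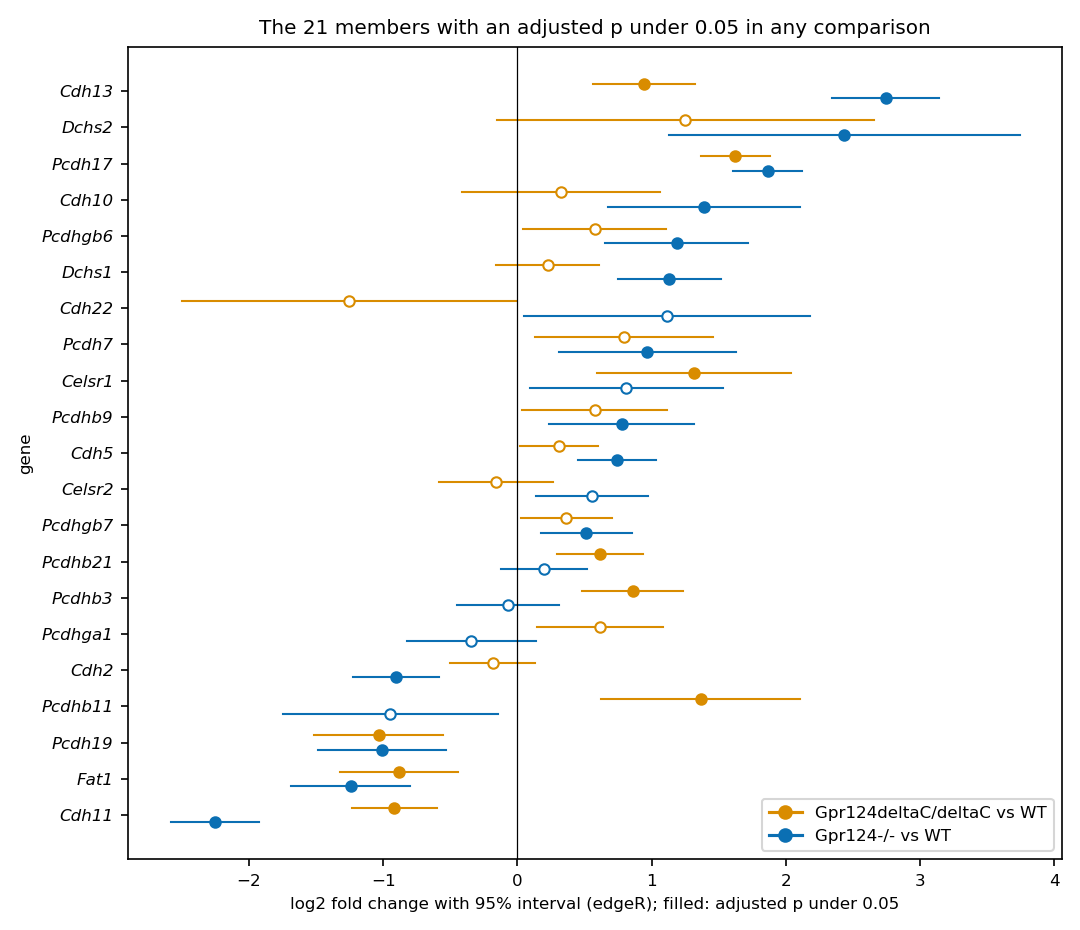
Log2 fold change against WT (horizontal axis, edgeR, points with 95% intervals) of the 21 members with an adjusted p under 0.05 in any of the 3 comparisons, in Gpr124-/- (blue) and Gpr124deltaC/deltaC (orange), filled where the adjusted p is under 0.05. Cdh13 is highest in Gpr124-/- at 2.74, and Pcdh17 lies at 1.86 and 1.62 in the 2 mutants.

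Cdh5 (VE-cadherin, chromosome 8 from 104101625 to 104144511, plus strand, GRCm38), the defining cadherin of endothelial adherens junctions, rose in Gpr124-/-. Its TPM was 282, 346, 307 and 291 in the WT embryos, 444, 368, 395 and 395 in Gpr124deltaC/deltaC and 522, 555, 492 and 546 in Gpr124-/-. Every Gpr124-/- embryo stood above every other embryo, and every Gpr124deltaC/deltaC embryo above WT. The log2 fold change of counts was 0.74 ± 0.13 (SE) in Gpr124-/- against WT (adjusted p = 0.00169, edgeR). It was 0.31 ± 0.13 in Gpr124deltaC/deltaC against WT (adjusted p = 0.296, edgeR), which did not pass, and 0.43 ± 0.13 between the mutants (adjusted p = 0.0703), a difference that passed with DESeq2, in limma on log2(TPM + 1) without a filter and without WT replicate 2 or Gpr124deltaC/deltaC replicate 1 (adjusted p as low as 0.0126). In TPM without Gm23935 the Gpr124deltaC/deltaC range of 375 to 517 overlapped both the 289 to 395 of WT and the 503 to 572 of Gpr124-/-.

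Cdh2 (N-cadherin, chromosome 18 from 16588877 to 16809246, minus strand) moved the other way. It stood at 145, 111, 162 and 151 TPM in WT, at 84.6, 121, 164 and 165 in Gpr124deltaC/deltaC and at 91.1, 67.1, 84.3 and 70.1 in Gpr124-/-. All Gpr124-/- embryos were below all WT embryos. The Gpr124deltaC/deltaC embryos overlapped WT, and only replicate 1, at 84.6 TPM, lay within the range of Gpr124-/-. Its log2 fold change was -0.90 ± 0.15 (SE) in Gpr124-/- against WT (adjusted p = 0.000730, edgeR) and -0.72 ± 0.15 against Gpr124deltaC/deltaC (adjusted p = 0.00919). The latter did not pass in limma fits of log2 TPM (adjusted p = 0.0740 to 0.112), and the TPM ranges of the mutants overlapped, though not without Gm23935 in the scale (98.5 to 167 in Gpr124deltaC/deltaC and 69.2 to 93.3 in Gpr124-/-). In Gpr124deltaC/deltaC against WT it was -0.18, with a 95% interval of -0.50 to 0.13 (adjusted p = 0.688). The ratio of Cdh5 to Cdh2 TPM was 1.89 to 3.11 in WT embryos, 2.40 to 5.25 in Gpr124deltaC/deltaC and 5.72 to 8.27 in Gpr124-/-, with means of 2.22, 3.27 and 6.90.

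Cdh11 (OB-cadherin, a type II cadherin known from mesenchymal cells, chromosome 8 from 102632095 to 102785642, minus strand) fell in both mutants and more in the null. Its TPM was 31.5, 26.00, 32.1 and 34.4 in WT, 11.3, 18.4, 18.7 and 21.6 in Gpr124deltaC/deltaC and 8.39, 5.22, 6.39 and 6.73 in Gpr124-/-. The 3 genotypes did not overlap. On the log2 scale of counts the change was -0.92 ± 0.15 (SE) in Gpr124deltaC/deltaC (adjusted p = 0.00267, edgeR) and -2.26 ± 0.15 in Gpr124-/- against WT (adjusted p = 6.60e-07), and between the mutants it was -1.34 ± 0.15 (adjusted p = 0.000290). The Gpr124deltaC/deltaC change did not pass in 2 of the 3 limma fits of log2 TPM (adjusted p up to 0.0689). Fibroblast markers stood at 13.1 to 81.7 summed TPM in WT, 10.3 to 18.3 in Gpr124deltaC/deltaC and 12.7 to 15.6 in Gpr124-/-, and 2 of their 7 tested genes, Pdgfra and Fmod, were lower in Gpr124-/-. The value of 81.7 belonged to WT replicate 3, and the other WT libraries stood at 13.07, 15.04 and 13.67. The part of these cells in the Cdh11 values was not tested.

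Cdh13 (T-cadherin, chromosome 8 from 118283733 to 119324921, plus strand) is held in the membrane by a lipid anchor instead of a transmembrane segment and binds adiponectin. It showed the largest fold change of all tested members in Gpr124-/- against WT. Its TPM was 6.46, 7.97, 8.46 and 10.6 in WT, 16.2, 16.1, 17.5 and 17.8 in Gpr124deltaC/deltaC and 39.9, 58.8, 62.5 and 67.9 in Gpr124-/-, again without overlap of any 2 genotypes. The log2 fold change was 0.94 ± 0.18 (SE) in Gpr124deltaC/deltaC (adjusted p = 0.00747, edgeR), 2.74 ± 0.18 in Gpr124-/- (adjusted p = 6.60e-07) and 1.80 ± 0.18 between them (adjusted p = 0.000161). In mean TPM this was a rise from 8.36 ± 1.700 (SD, n = 4) to 16.9 ± 0.886 and 57.3 ± 12.2. In TPM, Cdh13 lay below Cdh11 in every WT embryo and above it in every Gpr124-/- embryo.

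The other classical cadherins were low. Cdh10, a type II cadherin known from the brain, stood at 0.409, 0.274, 0.315 and 0.302 TPM in WT and 0.620, 1.21, 0.797 and 0.880 in Gpr124-/-, where the log2 fold change was 1.39 ± 0.33 (adjusted p = 0.00903, edgeR), and at 0.162, 0.509, 0.511 and 0.589 TPM in Gpr124deltaC/deltaC (log2 fold change against WT 0.32, adjusted p = 0.815). Cdh22, a type II cadherin first described in pituitary and brain, passed only between the mutants, at 0.132, 0.634, 0.121 and 0.258 TPM in Gpr124deltaC/deltaC and 0.794, 1.77, 1.64 and 1.505 in Gpr124-/- (log2 fold change 2.37 ± 0.56, adjusted p = 0.0189), with WT at 0.555, 1.07, 0.244 and 0.657 overlapping both. That call was lost when Gpr124deltaC/deltaC replicate 3 or 4 or Gpr124-/- replicate 2 was left out, with adjusted p up to 0.0589. These are genes of few reads, 18 to 32 per WT library for Cdh10 and 2 to 11 per Gpr124deltaC/deltaC library for Cdh22.

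Cdh1 (E-cadherin), the cadherin of epithelia, was at 0.309, 0.534, 3.13 and 0.266 TPM in WT, 0.0711, 0.0933, 3.37 and 0.543 in Gpr124deltaC/deltaC and 0.302, 0.0410, 0.0906 and 0.251 in Gpr124-/-. Replicate 3 of WT and replicate 3 of Gpr124deltaC/deltaC stood far above the others of their group, and the log2 fold change of -2.62 ± 1.18 in Gpr124-/- against WT did not pass (adjusted p = 0.152, edgeR). Cdh3 (P-cadherin) was under the filter, with means of 0.197, 0.558 and 0.0964 TPM. Cdh4 (R-cadherin) had means of 1.07, 1.31 and 1.86 TPM, Cdh6 of 1.301, 0.780 and 0.741, and Cdh23, a component of the tip links of hair cells, of 0.699, 0.606 and 0.561, and none of these 3 passed in the fit over all libraries. In Gpr124-/- against WT, Cdh4 was called with the embryo letter as a term and Cdh6 without WT replicate 2. Cdh8, Cdh24 and Cdh26 were also tested and did not pass in the fit over all libraries, at WT means of 0.623, 3.81 and 1.37 TPM. Over the 7 tested type II cadherins the median log2 fold change in Gpr124-/- against WT was 0.16. Cdh5 and Cdh10 rose and Cdh11 fell.

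Among the non-clustered protocadherins, Pcdh17 (chromosome 14 from 84443563 to 84537060, plus strand), a delta-2 protocadherin known from presynaptic assembly in basal ganglia circuits, rose in both mutants. Its TPM was 20.7, 21.1, 21.4 and 21.5 in WT, 66.9, 65.96, 79.7 and 63.2 in Gpr124deltaC/deltaC and 97.2, 79.6, 67.4 and 73.7 in Gpr124-/-. The lowest mutant embryo, at 63.2 TPM, stood above every WT embryo. On the log2 scale of counts the change was 1.62 ± 0.12 (SE) in Gpr124deltaC/deltaC (adjusted p = 1.35e-05, edgeR) and 1.86 ± 0.12 in Gpr124-/- (adjusted p = 4.38e-07). Between the mutants it was 0.24, with a 95% interval of -0.01 to 0.49 (adjusted p = 0.241), and 0.51 with the embryo letter as a term (adjusted p = 0.536). In Gpr124deltaC/deltaC against WT, Pcdh17 had the largest fold change of all tested members. The mean levels of the mutants were 68.9 ± 7.36 and 79.5 ± 12.8 TPM (SD, n = 4).

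Pcdh19 (chromosome X from 133582860 to 133688987, minus strand), a delta-2 protocadherin whose loss causes an epilepsy of girls, was lower in both mutants. It stood at 8.88, 8.83, 5.66 and 7.77 TPM in WT, 4.83, 4.14, 3.29 and 3.67 in Gpr124deltaC/deltaC and 3.72, 4.77, 3.34 and 4.18 in Gpr124-/-, with both mutants below WT and overlapping one another. The log2 fold change was -1.03 ± 0.22 (SE) in Gpr124deltaC/deltaC (adjusted p = 0.0176, edgeR) and -1.01 ± 0.22 in Gpr124-/- (adjusted p = 0.00577), and between the mutants 0.03 (95% interval -0.45 to 0.51). With the embryo letter as a term these were -1.11, -0.65 and 0.46. In Gpr124deltaC/deltaC it no longer passed without WT replicate 1 or 2 or without Gpr124deltaC/deltaC replicate 2, 3 or 4, with adjusted p up to 0.0599. Pcdh7 (NF-protocadherin) was at 2.26, 2.82, 1.24 and 1.76 TPM in WT, 4.35, 4.43, 3.94 and 2.13 in Gpr124deltaC/deltaC and 3.96, 5.003, 4.27 and 3.26 in Gpr124-/-. It passed in Gpr124-/- (log2 fold change 0.97 ± 0.31, adjusted p = 0.0414, edgeR), was 0.80 in Gpr124deltaC/deltaC (adjusted p = 0.219), and the former was lost with any of 9 libraries left out (WT 1, 3 or 4, Gpr124deltaC/deltaC 2 or 3, or any Gpr124-/- embryo), with adjusted p up to 0.118.

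Pcdh8, Pcdh9, Pcdh10 and Pcdh18 did not pass in the fit over all libraries, with mean TPM between 0.113 and 3.14. Pcdh9 was nearest, lower in every Gpr124-/- embryo than in any Gpr124deltaC/deltaC embryo (log2 fold change -1.01 ± 0.30, adjusted p = 0.0592, edgeR). It was called there by DESeq2, with a minimum mean of 50 counts, with only the compared genotypes in the fit and without WT replicate 3, WT replicate 4 or Gpr124deltaC/deltaC replicate 1. Pcdh12 and Pcdh1, the most abundant protocadherins in WT, did not pass either. Pcdh12 stood at 106, 107, 123 and 129 TPM in WT, 86.5, 117, 165 and 147 in Gpr124deltaC/deltaC and 136, 109.9, 147 and 160.4 in Gpr124-/-, and its log2 fold change in Gpr124-/- against WT was 0.21 (95% interval -0.097 to 0.51, adjusted p = 0.363, edgeR). Pcdh1 varied within genotypes, at 62.1, 81.7, 23.1 and 40.4 TPM in WT, 66.6, 65.6, 27.4 and 27.1 in Gpr124deltaC/deltaC and 42.02, 55.9, 64.9 and 74.3 in Gpr124-/-, with a log2 fold change of 0.13 (95% interval -0.80 to 1.06) that turned negative without WT replicate 3 (-0.12), WT replicate 4 (-0.0020) or Gpr124-/- replicate 4 (-0.016) and was 0.82 with the embryo letter as a term (adjusted p = 0.122). Its level went with the letter that opens the embryo label: over WT and Gpr124deltaC/deltaC, Pcdh1 was 62.1 to 81.7 TPM in the 4 embryos of letter J and 23.1 to 40.4 in those of K or L. Pcdh12 was 86.5 to 117 in J and 123 to 165 in K or L, and Cdh2 was 84.6 to 145 and 151 to 165. Both libraries whose TPM Gm23935 lowers carry the letter J. The share of all genes that separate by letter was not counted.

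The meaning of these letters is not stated in the labels. J held 2 WT and 2 Gpr124deltaC/deltaC embryos, L 1 WT and 2 Gpr124deltaC/deltaC, K 1 WT and 1 Gpr124-/-, and M 3 Gpr124-/- embryos. The K pair alone thus sets Gpr124-/- against WT within letters, also in a fit with the letter as a term. Its WT embryo is WT replicate 3, where fibroblast markers summed to 81.7 TPM and pericyte markers to 65.7. The other WT libraries lay at 13.07 to 15.04 and 28.1 to 39.9. On the log2 CPM scale, the K difference of Gpr124-/- minus WT was 0.72 for Cdh5, -0.88 for Cdh2, -1.98 for Cdh11, 2.19 for Cdh13, 2.14 for Pcdh17, -0.65 for Pcdh19, 1.25 for Dchs1 and -1.27 for Fat1. All of these had the sign of the comparison over all libraries, which was nearly fixed in advance. In TPM, none of these genes overlapped between Gpr124-/- and WT, and none of those that follow between Gpr124deltaC/deltaC and WT. The differences of Gpr124deltaC/deltaC minus WT in J and in L were -1.04 and -0.88 for Cdh11, 1.12 and 0.64 for Cdh13, 1.62 and 1.62 for Pcdh17, -1.03 and -1.26 for Pcdh19 and 1.19 and 1.49 for Celsr1. With the letter as a term of the edgeR fit, 16 of the 32 log2 fold changes that had passed stayed under an adjusted p of 0.05 and none changed sign. In Gpr124-/- against WT, those that did not kept most of their log2 fold change for Cdh5 (0.72, adjusted p = 0.131), Fat1 (-1.29, 0.107), Pcdhgb6 (1.17, 0.102), Pcdhb9 (0.64, 0.544) and Dchs2 (3.31, 0.205), and were smaller for Pcdh19 (-0.65, 0.328), Cdh10 (0.93, 0.587) and Pcdhgb7 (0.16, 0.872). Between the mutants they were Cdh22 (3.08, 0.233), Celsr2 (1.32, 0.0725), Pcdhga1 (-1.11, 0.474), Cdh11 (-1.02, 0.106), Cdh2 (-0.66, 0.306), Pcdhb3 and Pcdhb11, and in Gpr124deltaC/deltaC against WT Pcdhb11 (1.19, 0.0698).

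**Figure D4:**
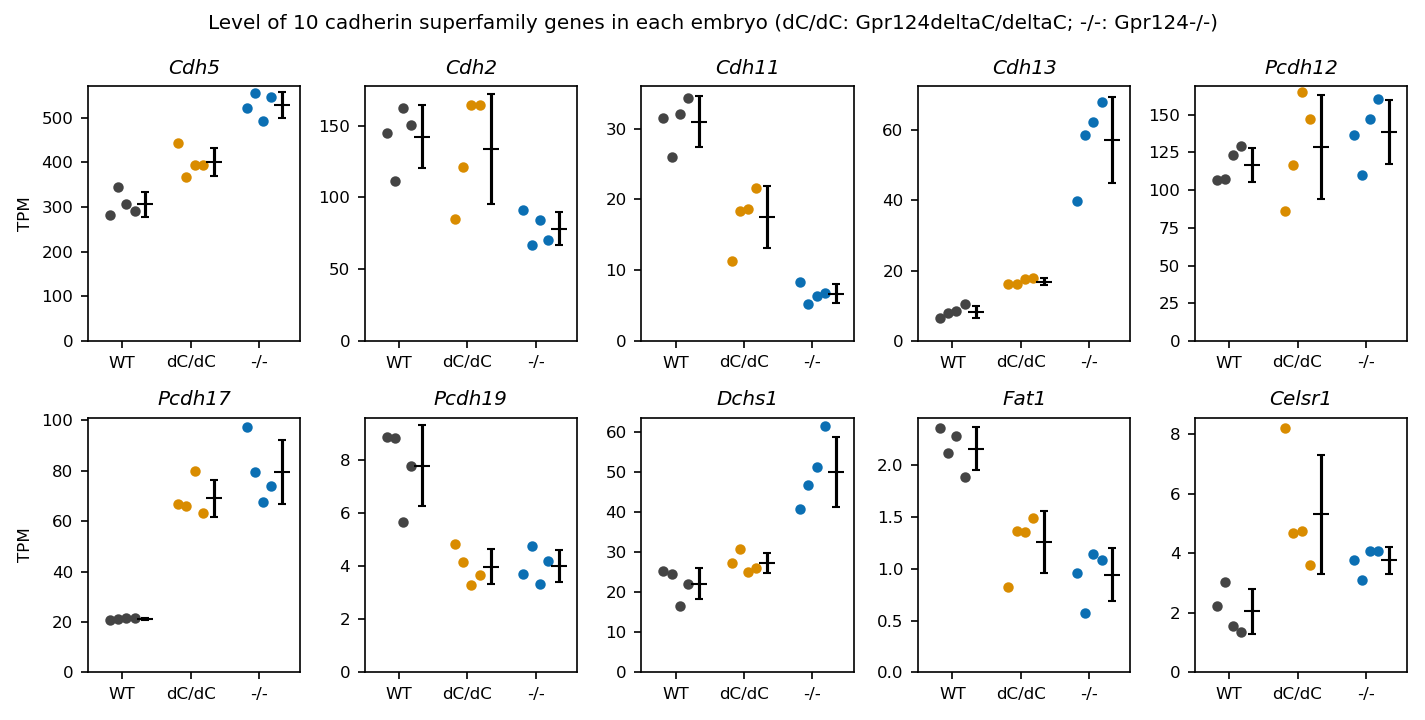
TPM (vertical axis, from 0) of 10 members in each embryo (points) with the mean and SD beside them, for WT, Gpr124deltaC/deltaC (dC/dC) and Gpr124-/- (-/-). Cdh11 and Cdh13 separate all 3 genotypes, Pcdh17 and Pcdh19 separate both mutants from WT, and Pcdh12 overlaps throughout.

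Of the FAT and Dachsous genes, Dchs1 rose and Fat1 fell. Dchs1 (chromosome 7 from 105752990 to 105787654, minus strand), the ligand of FAT4, rose in Gpr124-/-: its TPM was 25.4, 24.5, 16.6 and 22.1 in WT, 27.4, 30.7, 25.1 and 26.1 in Gpr124deltaC/deltaC and 40.7, 46.8, 51.4 and 61.4 in Gpr124-/-. The Gpr124-/- embryos stood above all others, and WT and Gpr124deltaC/deltaC overlapped. The log2 fold change was 1.13 ± 0.18 (SE) against WT (adjusted p = 0.000572, edgeR) and 0.91 ± 0.18 against Gpr124deltaC/deltaC (adjusted p = 0.00736), and in Gpr124deltaC/deltaC against WT it was 0.23 (adjusted p = 0.685). Fat4, its receptor, had means of 10.4, 11.01 and 9.11 TPM and did not pass (log2 fold change -0.23 in Gpr124-/- against WT, adjusted p = 0.226). It passed when Gpr124-/- replicate 1 was left out, with an adjusted p of 0.0489.

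Fat1 (chromosome 8 from 44935447 to 45052257, plus strand), which acts in cell contacts and in restraint of growth, was lower in both mutants. It stood at 2.36, 2.12, 2.28 and 1.88 TPM in WT, 0.820, 1.36, 1.36 and 1.49 in Gpr124deltaC/deltaC and 0.961, 0.575, 1.15 and 1.09 in Gpr124-/-, with every mutant embryo below every WT embryo. On the log2 scale of counts the change was -1.24 ± 0.20 (SE) in Gpr124-/- (adjusted p = 0.000813, edgeR) and -0.88 ± 0.20 in Gpr124deltaC/deltaC (adjusted p = 0.0257), with -0.36 between the mutants (adjusted p = 0.325). The Gpr124deltaC/deltaC change no longer passed without any of WT replicates 1 to 3 or Gpr124deltaC/deltaC replicates 1 to 3, with adjusted p up to 0.0767, and in the limma fits of log2 TPM (0.101 to 0.125). Dchs2 passed in Gpr124-/- against WT (log2 fold change 2.43 ± 0.60, adjusted p = 0.0119) from very low levels of 0.0119, 0.0850, 0.0279 and 0.0987 TPM in WT, 0.256, 0.139, 0.104 and 0.0354 in Gpr124deltaC/deltaC and 0.305, 0.330, 0.269 and 0.349 in Gpr124-/-. Its counts were 1 to 7 per WT library and 19 to 23 per Gpr124-/- library, and it met the filter through the mutants alone, so that its count among the called members is no support for a rise. Fat2 and Fat3 stood at means of at most 0.0285 and 0.305 TPM in any genotype.

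Of the Celsr genes, which encode core proteins of planar cell polarity with many membrane passes, Celsr1 rose in Gpr124deltaC/deltaC. Its TPM was 2.24, 3.04, 1.55 and 1.35 in WT, 8.21, 4.69, 4.73 and 3.59 in Gpr124deltaC/deltaC and 3.79, 3.105, 4.09 and 4.08 in Gpr124-/-, with both mutants above WT. Without Gm23935 in the scale, WT at 1.37 to 3.48 TPM and Gpr124-/- at 3.202 to 4.18 overlapped. On the log2 scale of counts the change was 1.32 ± 0.33 (SE) in Gpr124deltaC/deltaC (adjusted p = 0.0455, edgeR) and 0.81 ± 0.33 in Gpr124-/- (adjusted p = 0.114). The call in Gpr124deltaC/deltaC was lost without WT replicate 1, 3 or 4, without Gpr124deltaC/deltaC replicate 1, 2 or 3 or without any Gpr124-/- embryo, with adjusted p up to 0.131, and also in the fit of only the compared genotypes (0.112) and in limma on log2(TPM + 1) without a filter, whereas in Gpr124-/- the gene passed without WT replicate 2 or Gpr124deltaC/deltaC replicate 1, with an adjusted p as low as 0.0328. Celsr2 passed between the mutants alone, at 1.51, 1.91, 1.96 and 2.16 TPM in Gpr124deltaC/deltaC and 2.57, 3.16, 3.45 and 2.79 in Gpr124-/- (log2 fold change 0.71 ± 0.20, adjusted p = 0.0400), with WT at 2.36, 1.84, 1.27 and 2.43. That was lost without WT replicate 2, any Gpr124deltaC/deltaC embryo or Gpr124-/- replicate 2, 3 or 4, with adjusted p up to 0.106, without the filter and in all 3 limma fits (up to 0.110). Celsr3 had means of 0.553, 0.510 and 0.766 TPM and did not pass.

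The clustered protocadherins lie side by side on chromosome 18, Pcdha from 36930184, Pcdhb from 37264938 and Pcdhg from 37661793 to 37841873. Genes of the Pcdha and Pcdhg clusters share constant exons, so a median of 53.6% and 45.2% of their exon bases also belongs to another gene, against 0 in Pcdhb, and single members of the shared clusters are uncertain. The Pcdha cluster had few counted reads, 11 to 87 per library in all. Whether reads on shared exons were counted is not given. The summed counts of the Pcdhb cluster rose in Gpr124deltaC/deltaC by a log2 fold change of 0.42 ± 0.10 (SE, adjusted p = 0.0430, edgeR), and were 0.20 (adjusted p = 0.212) in Gpr124-/- against WT. In TPM, the Pcdhb cluster summed to 74.9, 67.6, 86.4 and 81.7 in WT, 77.8, 102, 134 and 121 in Gpr124deltaC/deltaC and 95.5, 91.4, 95.6 and 78.8 in Gpr124-/-, so that the Gpr124deltaC/deltaC embryos overlapped both other groups. Without Gm23935 in the scale they stood at 90.6 to 135 TPM, above the 76.8 to 88.02 of WT and overlapping the 79.99 to 97.9 of Gpr124-/-. The Pcdhb sum no longer passed without any one of 10 libraries (adjusted p up to 0.139), and passed without Gpr124deltaC/deltaC replicate 1 or Gpr124-/- replicate 4. The Pcdhg sum had log2 fold changes of 0.06 in Gpr124deltaC/deltaC and 0.17 in Gpr124-/- against WT (adjusted p = 0.948 and 0.493).

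Some single Pcdhb genes differed between the mutants, though not with the embryo letter as a term. Pcdhb3 was at 3.05, 2.502, 2.55 and 3.73 TPM in WT, 5.37, 4.84, 5.901 and 6.46 in Gpr124deltaC/deltaC and 3.24, 3.07, 3.03 and 2.25 in Gpr124-/-, so that it was high in Gpr124deltaC/deltaC alone. Its log2 fold change was 0.86 ± 0.17 (SE) in Gpr124deltaC/deltaC against WT (adjusted p = 0.0128, edgeR) and -0.93 ± 0.18 between the mutants (adjusted p = 0.00604), where the letter as a term gave -0.45 (0.913). Pcdhb11 had the same order at 0.900, 0.761, 0.648 and 1.82, 3.02, 2.704, 3.19 and 2.204 and 0.470, 0.339, 0.906 and 0.445 TPM in the 3 genotypes, with 1.37 ± 0.34 (adjusted p = 0.0430) and -2.31 ± 0.36 (adjusted p = 0.00216), the latter being -1.69 with the letter as a term (0.588). Its change against WT was lost without WT replicates 1 to 3, Gpr124deltaC/deltaC replicates 1 to 3 or Gpr124-/- replicate 1, with adjusted p up to 0.129. Pcdhb21 passed in Gpr124deltaC/deltaC (means 6.68 TPM in WT and 10.9, log2 fold change 0.62, adjusted p = 0.0348) and Pcdhb9 in Gpr124-/- (means 2.12 and 3.71 TPM, log2 fold change 0.78, adjusted p = 0.0437). Pcdhb21 was lost in 8 of the 12 fits that leave out 1 library (all but those without Gpr124deltaC/deltaC replicate 1 or Gpr124-/- replicate 1, 2 or 4, adjusted p up to 0.119) and Pcdhb9 in 9 (all but those without Gpr124deltaC/deltaC replicate 1, 2 or 3, adjusted p up to 0.114), and neither passed without the filter or in any limma fit. Across the 19 tested Pcdhb genes, 17 log2 fold changes were above 0 in Gpr124deltaC/deltaC and 15 in Gpr124-/-, with medians of 0.41 and 0.28.

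In the Pcdhg cluster, Pcdhgb6 rose in Gpr124-/-, from 7.75, 4.96, 6.78 and 9.802 TPM in WT to 15.7, 13.01, 19.8 and 19.6 (log2 fold change 1.19 ± 0.25, adjusted p = 0.00401, edgeR), with 5.59, 11.6, 14.9 and 14.8 in Gpr124deltaC/deltaC overlapping both (log2 fold change 0.57 against WT, adjusted p = 0.291). Its neighbour Pcdhgb7 passed with 0.51 ± 0.16 (adjusted p = 0.0356), but not without WT replicate 1, 2 or 3, Gpr124deltaC/deltaC replicate 4 or Gpr124-/- replicate 2, 3 or 4 (adjusted p up to 0.108), without the filter, with only the compared genotypes or in any limma fit. Pcdhga1 was lower in Gpr124-/- than in Gpr124deltaC/deltaC (1.61, 1.71, 1.24 and 1.77 against 1.97, 3.02, 4.46 and 3.45 TPM, log2 fold change -0.96 ± 0.22, adjusted p = 0.0171), which was lost without Gpr124deltaC/deltaC replicate 3 or Gpr124-/- replicate 3 (adjusted p up to 0.0570) and in limma on log2(TPM + 1) without a filter. The clustered genes most abundant in WT did not pass in the fit over all libraries: Pcdhgc3 had means of 33.3, 34.6 and 34.9 TPM, Pcdhb20 of 18.2, 20.5 and 15.9, Pcdhb17 of 11.02, 15.7 and 14.4 and Pcdhga12 of 7.89, 8.19 and 9.07. None of the 7 tested regulators of the clusters, among them Ctcf, the cohesin subunit Rad21 (at means of 61.7, 68.2 and 60.5 TPM) and Smchd1, passed in any comparison, where 10.5% of all genes passed higher and 9.32% lower in Gpr124-/- against WT.

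**Figure D5:**
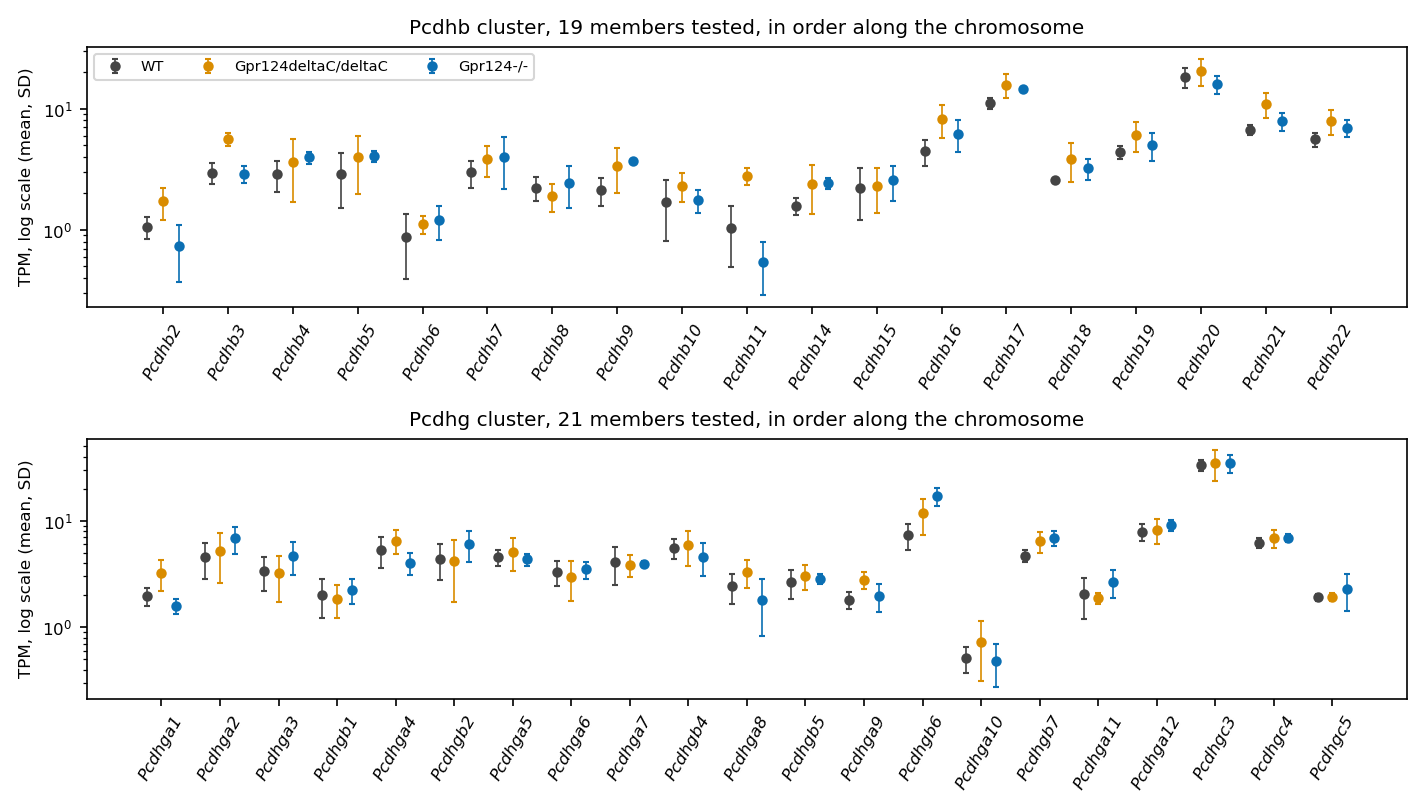
Mean TPM with SD (vertical axis, log scale) of the 19 tested Pcdhb genes (top) and 21 tested Pcdhg genes (bottom) in order along chromosome 18, for WT, Gpr124deltaC/deltaC and Gpr124-/-. Pcdhb3 and Pcdhb11 stand apart in Gpr124deltaC/deltaC, and Pcdhgb6 is higher in Gpr124-/-, while Pcdhgc3, the highest, is nearly level at 33.3, 34.6 and 34.9 TPM.

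The genes of proteins that work with cadherins were taken from fixed lists. Of 14 tested catenins and adherens junction linkers, 2 passed higher and 3 lower in Gpr124-/- against WT (10.5% and 9.32% of all genes). Jup (plakoglobin) rose from a mean of 149.6 to 215 TPM (log2 fold change 0.48, adjusted p = 0.0195, edgeR) and Ctnnal1 (alpha-catulin) from 1.46 to 4.45 (1.58, adjusted p = 0.00111), with a difference of 0.66 on the log2 CPM scale in the K pair. Of the p120-catenin family, Ctnnd1 (p120-catenin, 22.7 and 22.5 TPM, log2 fold change -0.06, adjusted p = 0.830) and Ctnnd2 (0.10, adjusted p = 0.891) did not pass, and 3 members fell: Arvcf from 14.4 to 8.63 TPM (-0.77, adjusted p = 0.0112), Pkp4 from 38.7 to 21.7 (-0.89, adjusted p = 0.00330) and Pkp2 from 6.02 to 1.23 (-2.33, adjusted p = 8.71e-06). Pkp2 was also the only gene of the list to pass in Gpr124deltaC/deltaC, at 3.43 TPM (log2 fold change -0.91, adjusted p = 0.0244). Ctnnb1 (beta-catenin), the highest of the list, stood at means of 739.7, 849 and 736 TPM and its log2 fold change was -0.05 in Gpr124-/- (adjusted p = 0.822).

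Of the 8 VE-cadherin regulators, a list that holds Cdh5 itself, 3 passed higher and 1 lower in Gpr124-/- against WT (10.5% and 9.32% of all genes) and none in Gpr124deltaC/deltaC (1.85% and 2.24%). The phosphatase gene Ptprj rose from 1.31 to 4.104 TPM (log2 fold change 1.61, adjusted p = 0.00533, edgeR), but the embryo of letter K stood at 1.37 TPM, within the 1.14 to 1.5003 of WT, and the 3 of letter M at 4.78 to 5.16, a letter with no WT embryo. Csk, which encodes the kinase that restrains SRC, rose from 12.02 to 19.00 (0.62, adjusted p = 0.0486), while Src fell from 45.6 to 17.5 (-1.44, adjusted p = 0.00974), with the WT embryo of letter K at 18.5 TPM within the 14.1 to 19.8 of Gpr124-/-. Kdr (VEGFR2), the highest, was at means of 769, 818 and 708 TPM. Among 3 tested nectins Nectin1 fell in Gpr124-/- (3.17 to 0.392 TPM, log2 fold change -3.08, adjusted p = 0.000155, K pair -1.81 in log2 CPM), and Nectin2, the highest, had 296, 237 and 234 TPM. None of the 9 desmosomal cadherins had enough reads to be tested. Of 5 tested cadherin-related genes outside the rule, Ret, a receptor tyrosine kinase with cadherin-like domains, was lower in both mutants (5.17 TPM in WT, 1.31 and 1.801, adjusted p = 0.0468 and 0.0473), and Clstn1 was the highest at means of 13.7, 17.9 and 19.7.

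Among 15 tested partners of FAT, Dachsous and planar polarity, 3 passed higher and 1 lower in Gpr124-/- against WT (10.5% and 9.32% of all genes). Prickle2 rose in both mutants, from 2.04 TPM to 3.22 and 5.28 (log2 fold changes 0.58 and 1.32, adjusted p = 0.0447 and 3.48e-05, edgeR). Ptk7 went from 23.5 to 44.7 TPM (0.88, adjusted p = 0.0252), with the K embryo at 27.8 TPM within the 16.6 to 29.6 of WT, and Lix1l from 8.504 to 13.5 (0.63, adjusted p = 0.00603), while Fzd6, the highest of the list, fell from 205 to 88.98 (-1.26, adjusted p = 1.36e-05).

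Adgra2 lies on chromosome 8 (27085583 to 27123436) with 9 members. Fat1 is 17.8 Mb, Cdh11 75.5 Mb, Cdh5 77.0 Mb and Cdh13 91.2 Mb away. Of the 6 tested there, 4 passed in Gpr124-/- against WT, 3 in Gpr124deltaC/deltaC against WT and 2 between the mutants, against 10, 6 and 7 of the 64 tested elsewhere. Over all tested genes, 16.9% of those on chromosome 8 and 20% of the rest passed in Gpr124-/-, 3.57% and 4.12% in Gpr124deltaC/deltaC and 6.14% and 8.98% between the mutants.

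Markers of other cells are given beside these results, and their part in them was not tested. Summed neuronal markers were 55.5 to 141 TPM in WT, 89.9 to 158 in Gpr124deltaC/deltaC and 117 to 152 in Gpr124-/-, and 1 of 12, Stmn2, passed higher in Gpr124-/-. Neural progenitor markers summed to 114 to 138, 114 to 121 and 140 to 166 TPM, with 1 of 7 passing lower in each mutant against WT. Pericyte markers were at 28.1 to 65.7, 14.2 to 32.0 and 33.4 to 40.7 TPM, with Abcc9 higher and Rgs5 lower among 8 in Gpr124-/-. Macrophage markers stood at 5.92 to 10.6, 6.94 to 14.2 and 3.28 to 22.2 TPM, and none of 3 tested passed against WT. Erythroid genes, at 7011 to 11768, 5446 to 9895 and 17816 to 54228 TPM, were higher in Gpr124-/- for 5 of 7 tested. Of the 10 endothelial markers, 2 passed higher and 3 lower in Gpr124-/- against WT. Pecam1 (log2 fold change 0.54) and Emcn (1.26) were higher, and Tek (-0.73), Erg (-0.41) and Cldn5 (-2.12) lower.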

How the data were processed

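RNA-seq libraries of 4 WT, 4 Gpr124deltaC/deltaC and 4 Gpr124-/- embryos were made from sorted cells with SMART-Seq v4 and sequenced as paired reads. The authors deposited raw read counts per gene for each library, and a table of TPM values for all libraries that the authors deposited beside them. Reads refer to mm10 (GRCm38) with GENCODE vM21 annotation, and bcl2fastq 2.17 is named in the submitters' processing notes. The aligner, the counter and the use of strand are not given in the sources used here. Recomputed from counts and exon lengths, TPM differed by at most 0.0495% for values of at least 0.1.

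Counts were fitted with edgeR 4.0.16 in R 4.3.3 over all 12 libraries with genotype as the only term, after filterByExpr and TMM scaling (factors 0.946 to 1.04), with p-values adjusted by Benjamini-Hochberg over 16637 genes. TPM values were compared by an exact two-sided permutation test over 70 orders, which cannot go below 0.0286. Library totals of 13877572 to 22551163 counts set the precision. Groups came from the labels, and p-values measure the spread between single embryos. Alternatives were DESeq2 1.42.0, upper-quartile factors, other filters, 2 genotypes at a time, limma 3.58.1 on log2 TPM with pseudocounts of 1 and 0.1, the embryo letter as a term and leaving out each library. TPM without Gm23935 was added after seeing the data. Methods were tested on simulated counts. These had the same dispersion for every gene and no effect of the embryo letter, so they do not show how a letter effect would act.

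The members and lists were chosen with earlier results of these data known. The 36 named members are those with an adjusted p under 0.05 in any comparison, the 15 highest in WT and 22 chosen for their role, sets that overlap. Other members and partner genes are mentioned beside them. Windows upstream of genes come from RefSeq (GRCm38.p6).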

Additional observations from a re-analysis of the deposited data

Results flagged for a closer look

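Cdh1, the gene of E-cadherin, stood apart in 2 libraries. It was at 3.13 TPM in WT replicate 3, where the other WT embryos lay between 0.266 and 0.534, and at 3.37 TPM in Gpr124deltaC/deltaC replicate 3, where the others lay between 0.0711 and 0.543. Each gap was wider than Dixon's test allows for 4 values. Of the 108 groups of 4 values examined, chance alone would mark about 1 in 20. Fibroblast markers summed to 81.7 TPM in the WT library and 14.6 in the Gpr124deltaC/deltaC library, and the part of other cells in the Cdh1 values was not tested.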

How the results depend on the processing

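Of the 32 log2 fold changes of members that passed, DESeq2 lost none, upper-quartile factors 1, no filter 4, fits of 2 genotypes at a time 2, limma on log2(TPM + 1) without a filter 9 and the embryo letter as a term 16. In limma with a mean TPM of at least 1 the fits held 29 of them and lost 6 with a pseudocount of 1 and 7 with 0.1. Leaving out 1 library lost 74 of 384 values, and none of these alternatives reversed a passed value.

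The 9 members called in Gpr124-/- against WT became 5 with limma on log2(TPM + 1), with or without a filter, 14 without a fold threshold, 6 with the letter (Cdh10, Dchs2, Fat1, Pcdh19 and Pcdhgb6 lost, Cdh4 and Pcdh7 gained) and 8 to 11 with 1 library left out. The 4 called in Gpr124deltaC/deltaC against WT became 2 with limma on log2(TPM + 1) and a filter, 4 on log2(TPM + 0.1), 1 on log2(TPM + 1) without a filter, 9 without a fold threshold and 1 to 4 with 1 library left out. The 4 called between the mutants became 2 with the letter, 7 with DESeq2, 9 without a fold threshold and 3 to 8 with 1 library left out. The cause was not tested.

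The Pcdhb sum in Gpr124deltaC/deltaC against WT was 0.41 without a filter (adjusted p = 0.0736, edgeR), 0.42 in the fit of 2 genotypes (0.0548) and 0.46 in each limma fit (0.226, 0.242 and 0.274), and 0.33 to 0.50 with 1 library left out. The Pcdha sum was 0.056 between the mutants with the letter and -0.25 to 0.57 in Gpr124-/- against WT with 1 library left out. With the letter the Pcdhg sum was -0.030 in Gpr124-/- against WT and -0.066 between the mutants, and with 1 library left out it was -0.051 to 0.19 in Gpr124deltaC/deltaC against WT and -0.0049 to 0.22 between the mutants. With 1 library left out, Pcdh1 in Gpr124-/- against WT was -0.12 to 0.50 and Pcdh19 between the mutants -0.091 to 0.22, and the latter was -0.0060 with upper-quartile factors and 0.46 with the letter. Named members without overlap in TPM in Gpr124deltaC/deltaC against WT went from 10 to between 10 and 16 with 1 library left out. Leaving out a library can only keep or raise this count.

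No paired analysis was possible because the replicate numbers only follow the order of the samples. The embryo letters, which groups share in part, were fitted as a term instead. Members under the filter were not tested in the fit over all libraries. Fits without a filter on low counts added no member to those called in any comparison. Cdh12, under the filter in the fit over all libraries, was called between the mutants when Gpr124deltaC/deltaC replicate 2 was left out. It held 100 reads in all over the 12 libraries, so that this call rests on few reads.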
